A study of Rattus norvegicus with 3 samples.

Results

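The genes followed here were chosen by name, as a list of 10 symbols: Thy1, Alcam, Icam1, Ncam1, Mcam, Pecam1, L1cam, Cspg4, Cd34 and Cd200. They are the immunoglobulin-type adhesion molecules and related surface markers by which mesenchymal stem cells (MSCs) and their neighbors are commonly told apart. All 10 had a named probe, 12 probes in all, among the 13301 genes and 16745 probes that could be named on a whole rat genome array. Cy3-labeled RNA of 3 cell types of F344 rats was hybridized to 1 array each. MSCs had been grown from femur bone marrow on plastic, with no sort by surface markers named in the methods, and in medium with a larger share of serum than that of the lines. COS1NR is a line of an osteosarcoma and MFH1NR a line of a malignant fibrous histiocytoma. Both lines came from tumors induced with the carcinogen 4-HAQO and, per the methods, carry a p53 mutation. Each tumor type is represented by 1 cell line. With 1 array per cell type there were no replicates, so nothing could be tested and every difference below is a difference between arrays. Both sarcoma arrays lay on 1 slide with 1 scan time and the MSC array on another, so that wherever MSCs are compared, slide and cells cannot be told apart.

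Adhesion molecules of the immunoglobulin superfamily carry extracellular immunoglobulin-like domains, which bind the same molecule, a relative or an integrin on a neighboring cell. Several of them serve as flow cytometry markers. CD90 (Thy1), CD166 (Alcam) and CD146 (Mcam) are used to recognize cultured MSCs, while CD31 (Pecam1) and CD34 (Cd34) are used to recognize endothelial and hematopoietic cells. Cspg4, the NG2 proteoglycan of pericytes and glial progenitors, and Cd34, a sialomucin, are surface markers without immunoglobulin-type domains.

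Sequence before the start site is shown for Icam1 and Cspg4, whose signals differed widely among the arrays, and for Cd34, which was not well above background on any of them. The sequences are those of RefSeq for build GRCr8, whose promoter table held 5 of the 10 genes. All 3 stretches are on the + strand, at chr8:27829595-27829687 (Icam1, 93 bases), chr8:66160692-66160941 (Cspg4, 250 bases) and chr13:109008536-109008785 (Cd34, 250 bases). Bases within the annotated gene were left out, which shortened the stretch of Icam1. Capitals mark matches to GGGCGG, known as the GC box, and to GGAAATTCC, one form of the NF-κB motif, on either strand.
Icam1: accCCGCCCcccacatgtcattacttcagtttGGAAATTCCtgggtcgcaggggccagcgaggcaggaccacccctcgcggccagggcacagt
Cspg4: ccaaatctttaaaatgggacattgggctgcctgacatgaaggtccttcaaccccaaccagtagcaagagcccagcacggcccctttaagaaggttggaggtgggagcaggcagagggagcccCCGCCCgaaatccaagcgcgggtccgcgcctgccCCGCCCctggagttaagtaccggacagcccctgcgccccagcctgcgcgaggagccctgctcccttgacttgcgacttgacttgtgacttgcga
Cd34: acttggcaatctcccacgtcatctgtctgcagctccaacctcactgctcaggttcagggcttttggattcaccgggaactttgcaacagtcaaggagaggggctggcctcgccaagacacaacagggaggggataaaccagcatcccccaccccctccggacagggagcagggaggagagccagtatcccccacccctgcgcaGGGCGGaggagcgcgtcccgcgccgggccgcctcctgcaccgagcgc
The GGAAATTCC of Icam1 begins at position -218 from the table's start site, and 0.287% of all 33469 windows of 250 bases before a start site hold this motif. GGGCGG was found in the windows of Icam1, Cspg4 and Cd34 and in 30.5% of all windows. It overlapped no other motif searched. TATAAA was found in the full window of Icam1, outside the printed stretch, and in 12.9% of all windows. TGANTCA, the AP-1 motif, and the longer consensus of NF-κB were found in none of the 5 windows, against 6.34% and 1.30% of all windows. A match describes letters only.

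The intensity of each probe is given as deposited, and ratios were taken after dividing it by the 75th percentile of its array. A probe was called well above background by the scanner software. Where it had this call in only 1 of the 2 arrays compared, the ratio is a limit, set at the lowest intensity with the call on the dim array (17.9 in MSCs, 29.4 in COS1NR and 30.1 in MFH1NR) or at the probe's own value if that was higher. Limits and ratios hold for the background subtraction of the deposited values. With another correction, normexp with an offset of 50, 15 of the 22 member log2 ratios moved by over 1.5 times in fold, all 15 toward 0, and some fell short of the limits, as given with each gene. The offset is added to every intensity and exceeds the intensities at which the limits were set. It therefore draws ratios of dim signals toward 0 by construction. In MSCs 8 of the 10 genes were well above background, in COS1NR 4 and in MFH1NR 5, against 69.7%, 65.7% and 66.6% of all named genes. Errors are standard errors of spots within an array and cover neither cultures nor labeling. Icam1 and Ncam1, each printed 10 times, have errors from their own spots, while the other members were printed once per probe and take the spread of the 30 replicated probes nearest to them in level. For genes with a second probe, the log2 ratios of both probes differed by a median of 0.28 between COS1NR and MSCs, 0.31 between MFH1NR and MSCs and 0.15 between the sarcomas (1895 genes).

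**Figure D1:**
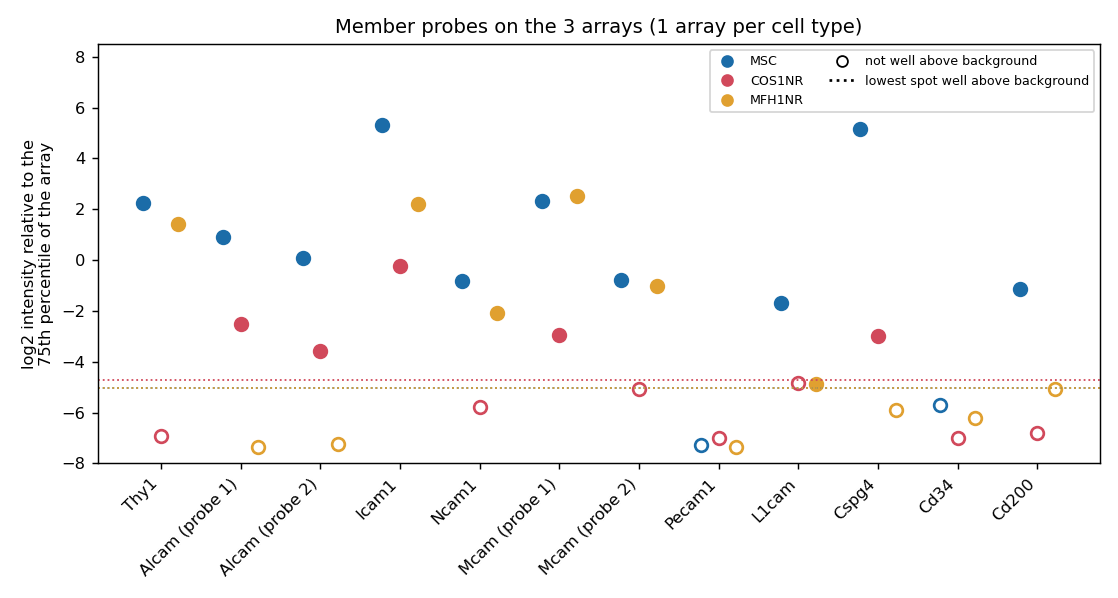
Log2 intensity of the 12 member probes relative to the 75th percentile of each array, with filled points well above background, open points not, and dotted lines at the lowest spot with that call on each array. Filled points of MSCs are present for 8 genes, those of COS1NR for 4 and those of MFH1NR for 5, while Pecam1 and Cd34 have open points throughout. Heights of different probes are not comparable with each other.

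Most of these genes were at least 2-fold lower in both sarcomas than in MSCs, and Thy1 and Mcam were so in COS1NR only. In COS1NR, 8 of the 8 members that could be compared were at least 2-fold lower than in MSCs, where 20.0% of all genes compared were so. In MFH1NR, 6 of 8 were at least 2-fold lower, where 21.6% of all genes were so. None reached 2-fold above MSCs, while 20.7% of all genes did so in COS1NR and 19.4% in MFH1NR. The 6 genes lower by this margin in both were Alcam, Icam1, Ncam1, L1cam, Cspg4 and Cd200, where 13.6% of all genes were lower in both. These counts hold 1 MSC array on both sides, and the genes counted had to be well above background on at least 1 of the arrays compared. All 8 members compared had this call in MSCs. Thy1, Ncam1, L1cam and Cd200 lacked it in COS1NR, and Alcam, Cspg4 and Cd200 lacked it in MFH1NR. Their ratios there are limits and could only come out lower. The shares over all genes also hold genes with the call in the sarcoma only. The median log2 ratio of the members was -4.57 in COS1NR and -3.16 in MFH1NR, with limits taken at their value, against 0.11 and 0.02 over all genes.

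**Figure D2:**
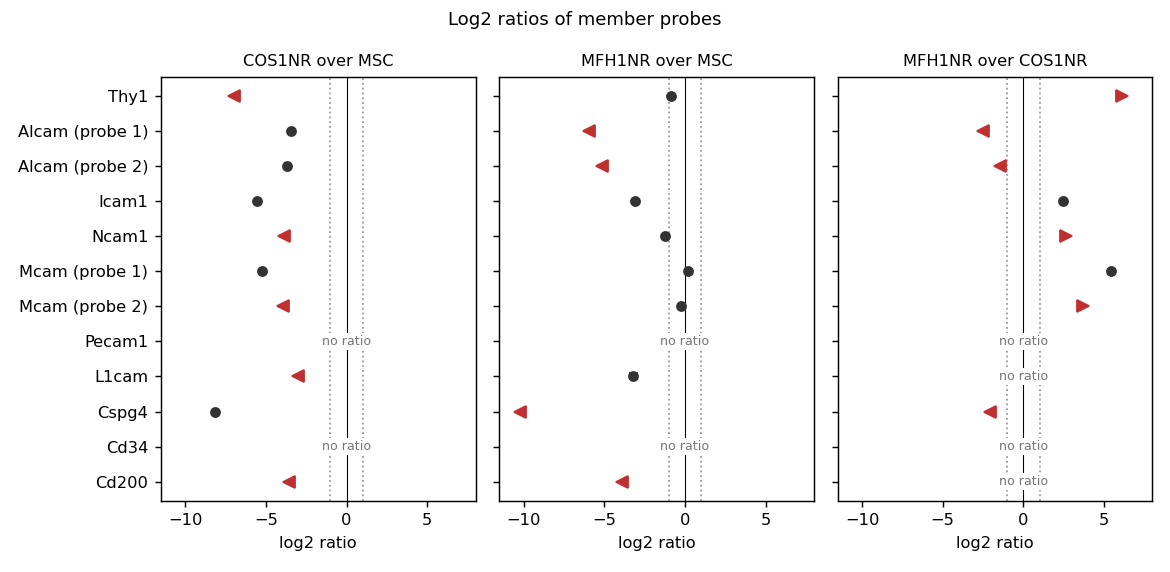
Log2 ratios of the 12 member probes in 3 comparisons, with dots for measured ratios (bars are standard errors of spots, borrowed from replicated probes of like level for probes printed once), triangles for limits pointing the way the true ratio lies, and dotted lines at 2-fold. In COS1NR over MSC every ratio lies left of the 2-fold line, while in MFH1NR over MSC those of Thy1 and Mcam lie between the 2-fold lines.

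Thy1 and Mcam, both used to recognize cultured MSCs, were far lower in COS1NR but not in MFH1NR. The MSC array gave Thy1, a GPI-anchored glycoprotein of MSCs, fibroblasts and neurons, an intensity of 2781, the COS1NR array 6.29 and the MFH1NR array 2632.5. The signal in COS1NR was not well above background, and that in MFH1NR was close to that in MSCs before scaling. Its log2 ratio to MSCs was -0.83 ± 0.06 in MFH1NR, a difference that 25.2% of all genes reached or exceeded in that direction, and -0.08 without scaling between arrays. COS1NR lay at least 124-fold below MSCs, a limit reached by 0.747% of all genes, and at a log2 ratio of -5.58 under normexp against the limit of -6.96. MFH1NR, on the same slide as COS1NR, lay at least 69.7-fold above it, and 0.439% of all genes had a ratio as high. Under normexp this log2 ratio was 4.98 against a limit of 6.12.

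Alcam, which binds itself and the lymphocyte receptor CD6, was measured by 2 probes. The intensity fell from 1090 on the MSC array to 134 on that of COS1NR and 6.05 on that of MFH1NR by the brighter probe. The second probe read 626, 63.9 and 6.55 in the same order. By both probes MSCs were highest, COS1NR was intermediate, and MFH1NR was not well above background. The log2 ratio of COS1NR to MSCs was -3.42 ± 0.10 by the brighter probe and -3.69 ± 0.12 by the other, which is within the median difference between probes. MFH1NR was at least 61.2-fold and 35.1-fold lower than MSCs by these probes. It was also at least 5.71-fold and 2.73-fold lower than COS1NR, the opposite order of the sarcomas to that of Thy1. Under normexp the log2 ratios of MFH1NR were -4.79 to MSCs and -1.84 to COS1NR, against limits of -5.93 and -2.51 by the brighter probe.

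Mcam (CD146), an adhesion molecule of endothelium, pericytes and bone marrow stromal progenitors, also had 2 probes. The brighter probe read 2910 for MSCs, 101 for COS1NR and 5672 for MFH1NR. The dimmer probe read 342, 22.8 and 484. COS1NR was lowest by both, and the dimmer probe was not well above background there. The log2 ratio of COS1NR to MSCs was -5.24 ± 0.10 by the brighter probe, a 37.9-fold difference, and the dimmer probe was at least 15.3-fold lower. For MFH1NR over MSCs the probes gave 0.21 ± 0.06 and -0.25 ± 0.07, so that the direction depended on the probe. Their distance exceeded the median of 0.31 for genes with a second probe but not the 90th percentile of 0.99. Between the sarcomas, Mcam was 43.8-fold higher in MFH1NR by the brighter probe and at least 12.8-fold higher by the dimmer one. Under normexp the brighter probe gave log2 ratios of -4.28 for COS1NR over MSCs and 4.78 between the sarcomas.

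Thy1 and Mcam lie close to each other on rat chromosome 8, with 4 protein-coding genes between them in the gene table, and these were looked at after the values of Thy1 and Mcam were seen. Usp2, a deubiquitinating enzyme, read 216 for MSCs, 142 for COS1NR and 417 for MFH1NR. Rnf26, a ubiquitin ligase, was higher in each sarcoma, at log2 ratios of 1.15 and 0.90. C1qtnf5, a secreted C1q-related protein, was far lower in both, at -8.15 and -8.74. The fourth, Mfrp, was not well above background on any array. The genes between Thy1 and Mcam did not share 1 pattern, as C1qtnf5 was lower and Rnf26 higher in each sarcoma. Whether the shared region bears on the levels of Thy1 and Mcam was not tested. Of the 10 members, 5 lie on chromosome 8, namely Icam1, Thy1, Mcam, Ncam1 and Cspg4.

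Cspg4, the perivascular proteoglycan, read 21105 for MSCs, 97.8 for COS1NR and 16.9 for MFH1NR. It was well above background in COS1NR but not in MFH1NR. In COS1NR it was 283-fold lower than in MSCs (log2 ratio -8.15 ± 0.10), where 0.332% of all genes were as low. MFH1NR lay at least 1184-fold below MSCs, where 0.0713% of genes were as low, and at least 4.18-fold below COS1NR. Under normexp the log2 ratios to MSCs were -7.49 in COS1NR and -8.67 in MFH1NR, the latter against a limit of -10.21, and that between the sarcomas was -1.18 against a limit of -2.06. The upstream sequence printed above holds 2 matches to GGGCGG, as does the full window of Icam1.

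Genes listed as pericyte markers were read beside Cspg4. In COS1NR, 6 of 9 were at least 2-fold lower than in MSCs and 1 was higher, and in MFH1NR 7 were lower and 1 higher. Kcnj8 and Abcc9, which together form a potassium channel of mural cells, were well above background only in MSCs, at 4782 and 1426, and were at least 214-fold and 63.7-fold lower in COS1NR. In MFH1NR the limits were 268-fold and 80.0-fold. Cnn1, a calponin of smooth muscle, was likewise well above background only in MSCs, at 2166. Pdgfrb, the PDGF receptor of pericytes and stromal cells, kept signal on all arrays, with log2 ratios to MSCs of -4.12 and -2.89. Notch3 had 0.63 and -0.15, within 2-fold of MSCs, and Angpt1, the ligand of the endothelial receptor Tek and the 1 gene higher in each sarcoma, had 3.77 and 1.52. In these bulk cultures, fewer cells of a type and less RNA per cell cannot be told apart.

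Icam1, the ligand of the leukocyte integrins LFA-1 and Mac-1, was printed 10 times on each array. Its spots ranged from 21239 to 24362 in MSCs (median 23698), from 637 to 677 in COS1NR (median 656) and from 4451 to 4720 in MFH1NR (median 4652). No spot of one array reached the range of another. Spots called outliers, 2 in MSCs and 1 in COS1NR, were left out of the ratios. The log2 ratio to MSCs was -5.56 ± 0.016 in COS1NR and -3.11 ± 0.017 in MFH1NR, and MFH1NR was 5.46-fold higher than COS1NR. In COS1NR 1.54% of all genes were as low against MSCs, and in MFH1NR 6.74%.

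**Figure D3:**
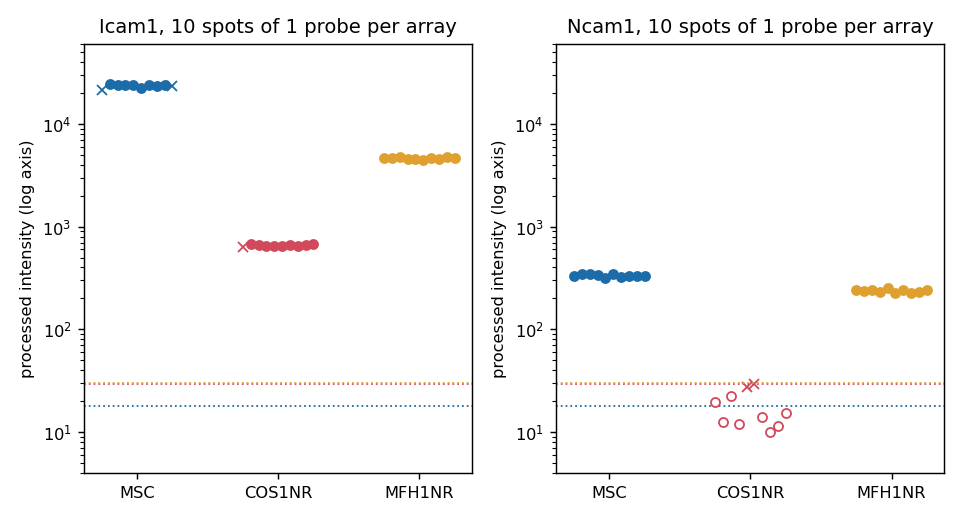
Processed intensity on a log axis of every spot of the probes for Icam1 and Ncam1, each printed 10 times per array, with crosses for spots called outliers, open circles for spots not well above background, and dotted lines at the lowest intensity with that call on each array. The spots of Icam1 form 3 separate groups, and the spots of Ncam1 in COS1NR lie under the dotted line of that array.

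The receptors of Icam1 and genes that act upstream of it were lower as well. Itgal and Itgam, the α chains of LFA-1 and Mac-1, were well above background only in MSCs, at 234 and 336, and Itgb2, their common β chain, at 1832 in MSCs and 292 in COS1NR. These chains are made by leukocytes. Of 11 genes of NF-κB and inflammatory signaling, which is known to induce Icam1, 8 were at least 2-fold lower in COS1NR and 8 in MFH1NR, and 1, the superoxide dismutase Sod2, was higher in COS1NR. Irf1, an interferon-regulated transcription factor, had log2 ratios of -4.51 and -4.23, while Nfkbia, the NF-κB inhibitor and target, had -1.54 in COS1NR and -3.90 in MFH1NR. Tnf was well above background only in MSCs, at 1423. The median log2 ratio of this list was -1.39 in COS1NR and -1.74 in MFH1NR.

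Ncam1 and L1cam, adhesion molecules of neurons and glia that also occur in mesenchymal cells, were both highest in MSCs. The 10 spots of Ncam1 ranged from 319 to 345 in MSCs (median 332), from 9.99 to 29.3 in COS1NR (median 14.6) and from 225 to 254 in MFH1NR (median 239). All 10 spots were well above background in MSCs and in MFH1NR and none was in COS1NR, where 2 were called outliers and Ncam1 lay at least 14.9-fold below MSCs and at least 6.28-fold below MFH1NR. Under normexp these log2 ratios of COS1NR were -2.75 to MSCs, against a limit of -3.90, and 1.63 for MFH1NR over COS1NR, against 2.65. The log2 ratio of MFH1NR to MSCs was -1.25 ± 0.021. This last ratio came within 2-fold, at -0.49, without scaling between arrays and, at -0.73, with scaling by spike-in probes.

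L1cam read 183 for MSCs, 26.8 for COS1NR and 33.5 for MFH1NR. Its signal in MFH1NR was just above the background limit and that in COS1NR just below, so no ratio can be given between the sarcomas. Against MSCs the limit in COS1NR was 8.17-fold lower or more, and MFH1NR was 9.20-fold lower (log2 ratio -3.20 ± 0.22). Under normexp the log2 ratios were -1.72 in COS1NR, against a limit of -3.03, and -1.93 in MFH1NR. St8sia2 and St8sia4, the enzymes that add polysialic acid to Ncam1, were not well above background on any array. Of 11 named markers of neural crest, glia and neurons, 7 were well above background in MSCs and 5 in each sarcoma. Each sarcoma had 2 that were at least 2-fold lower than MSCs and 1 that was higher. Sox10, a neural crest factor and the 1 higher in COS1NR, was dim at 38.6, 111 and 106, S100b and Gfap were not well above background on any array, and Tubb3, a neuronal tubulin, was lower in each sarcoma, at -4.51 and -4.59. Mbp, a myelin protein, was higher in MFH1NR, with a log2 ratio of 2.24.

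Cd200, the ligand of the inhibitory receptor CD200R on myeloid cells, read 268 for MSCs, 6.98 for COS1NR and 29.3 for MFH1NR. It was well above background in MSCs only. The difference from MSCs was at least 12.0-fold for COS1NR and at least 15.1-fold for MFH1NR, and between the sarcomas no ratio can be given. Under normexp the log2 ratios were -2.57 and -2.44, against limits of -3.58 and -3.91. Its receptor gene Cd200r1 stayed near the MSC level, at log2 ratios of 0.07 for COS1NR and 0.06 for MFH1NR, with intensities from 190.0 to 335.

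Pecam1 and Cd34, the members that mark endothelial and hematopoietic cells, had no signal above the background limit. Pecam1, an adhesion molecule of endothelium, platelets and leukocytes, read 3.80 for MSCs, 6.0 for COS1NR and 6.11 for MFH1NR. Cd34, the marker of hematopoietic progenitors and capillary endothelium, had 11.4, 6.12 and 13.5. Neither was called well above background on any array, so no ratio was formed. This says only that the signal was below the background limit of these probes, each of which was printed once. Of the 8 endothelial markers named, 4 were well above background in MSCs, 2 in COS1NR and 1 in MFH1NR. Kdr, the VEGF receptor, had 306, 78.8 and 80.8 and Esam, an endothelial junction molecule, 244, 11.9 and 6.09, while Cdh5, which encodes VE-cadherin, had 26.0, 48.3 and 22.6. Tek, Emcn, Cldn5 and Erg were not well above background on any array. Their part in the signal of Mcam and Icam1 was not tested.

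Other surface markers of MSCs and of leukocytes were read beside the members. Of 15 markers listed as positive in MSCs and well above background on at least 1 array, 10 were at least 2-fold lower in COS1NR and 12 in MFH1NR, and none was higher. Of the 4 brightest of this list, Cd44 had log2 ratios of -0.57 in COS1NR and -0.93 in MFH1NR, and Cd63 -1.02 and -0.94. Itgb1 had -0.68 and -2.47, and Pdgfrb, given above, -4.12 and -2.89. Cd81, a tetraspanin, had 11013 in MSCs and 61.1 in MFH1NR and was not well above background in COS1NR. Pdgfra, a PDGF receptor of stromal cells, was lower in COS1NR, at -4.82, and near MSCs in MFH1NR, at -0.27. Of 7 named markers held to be negative in MSCs, 5 were well above background in MSCs, and 4 of these were at least 2-fold lower in each sarcoma. All 12 stromal genes listed were well above background in MSCs, 11 in COS1NR and 10 in MFH1NR. Of these, 10 were at least 2-fold lower in COS1NR and 9 in MFH1NR, and the transcription factor Twist1 was higher in each. All 11 named leukocyte markers were well above background in MSCs, where their summed scaled level was 125, against 12.4 in COS1NR, where 8 were so, and 5.09 in MFH1NR, where 7 were so. All 11 were at least 2-fold lower in each sarcoma. Tyrobp, a signaling adaptor of myeloid cells, read 11921 for MSCs, 50.3 for COS1NR and 61.3 for MFH1NR. Ptprc, which defines leukocytes as CD45, had 57.5 in MSCs and no signal well above background in the sarcomas. Cd14, Laptm5 and Cd68 stayed well above background in both sarcomas. Cd14, also listed as negative in MSCs, read 25626 for MSCs, 3387 for COS1NR and 3095 for MFH1NR. In the same order, Laptm5 read 13864, 2605 and 539 and Cd68 7120, 3135 and 956. Of 7 T cell and 3 B cell markers named, 4 and 1 were well above background in MSCs. Cd3d and Cd3e, chains of the T cell receptor complex, differed, as Cd3d read 452 for MSCs, 893 for COS1NR and 627 for MFH1NR and Cd3e was not well above background on any array. Of the T cell markers, COS1NR had 1 and MFH1NR 2 that were at least 2-fold lower, Lck was higher in COS1NR, and the B cell marker Blk was lower in each. The part of leukocyte RNA in the levels of Icam1 and the other members in MSCs was not tested.

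**Figure D4:**
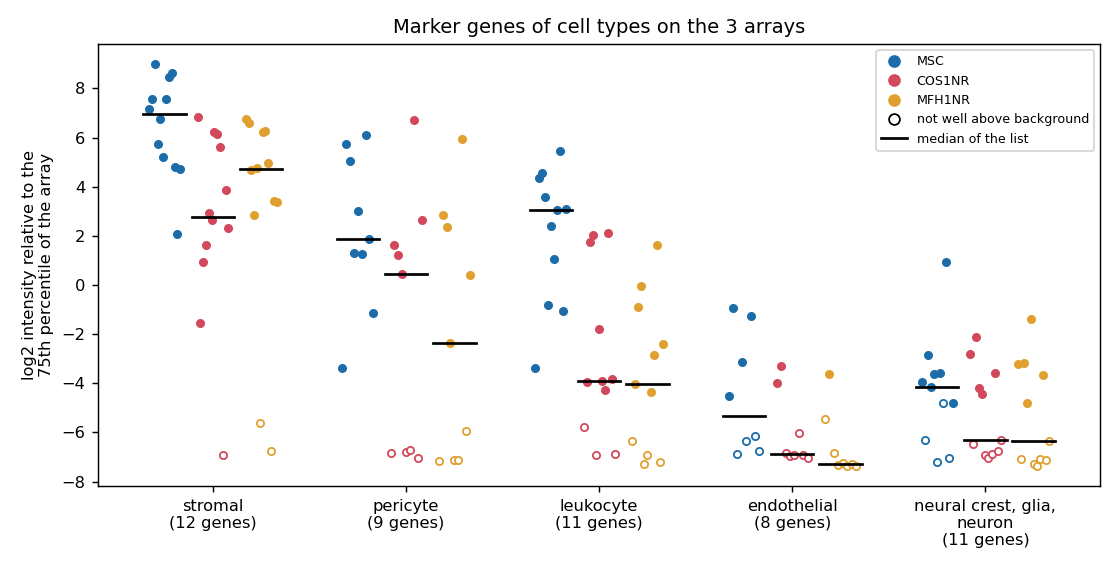
Log2 intensity relative to the 75th percentile of each array for named genes of 5 marker lists, 1 point per gene, with open points not well above background and bars at the median of the list. All 11 leukocyte markers are filled in MSCs, while at most 4 of the 8 endothelial markers are filled on any array.

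Between the sarcomas, which shared a slide, the members differed both ways. Of the 7 compared, 4 were at least 2-fold higher in MFH1NR than in COS1NR (Thy1, Icam1, Ncam1 and Mcam), where 12.4% of all genes were so, and 2 were at least 2-fold lower (Alcam and Cspg4), where 15.1% were so. For L1cam the limit was under 1-fold. Of the 2 sarcomas, Thy1 and Ncam1 were well above background in MFH1NR only, and Alcam and Cspg4 in COS1NR only. The direction of these limits was thereby fixed. The likeness to other genes was measured over 80 listed genes that were well above background throughout. The 2 whose 3 log2 ratios lay nearest to those of Mcam were Mmp14, a membrane-type matrix metalloproteinase, and Pdgfra, at distances of 0.67 and 1.1. Mmp14 had log2 ratios of -5.49 in COS1NR and -0.34 in MFH1NR to MSCs and of 5.15 between the sarcomas. Nearest to Icam1 were Pdgfrb and Lum, a proteoglycan of the matrix, at 1.89 and 2.14. These distances rest on 3 arrays and describe likeness only.

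Other immunoglobulin-type adhesion genes were lower more often than higher in each sarcoma and ranged widely. Of 53 listed, 41 were named and 30 were well above background on at least 1 array. In COS1NR, 12 of 27 compared were at least 2-fold lower than in MSCs and 2 were higher, and in MFH1NR 17 of 28 were lower and 3 higher. Between the sarcomas, 9 of 24 were lower in MFH1NR and 4 higher. The median log2 ratio was -0.38 in COS1NR and -1.11 in MFH1NR. It depended on the processing, at -1.08 in COS1NR and -1.86 in MFH1NR with measured values in place of limits, and at -0.41 in MFH1NR without scaling. Higher than in MSCs were F11r, a junctional molecule, and Bcam in COS1NR, and Cntn1, Cntn3 and Nectin3 in MFH1NR. Vcam1, the ligand of integrin α4β1, was lower in COS1NR, at -4.89, and in MFH1NR, at -7.03. Igsf3 and Clmp, a junctional adhesion molecule, had -1.65 and -1.97 in COS1NR and -3.25 and -2.06 in MFH1NR. Emb, an adhesion glycoprotein and transporter chaperone, was at the level of MSCs in COS1NR, at -0.01, and at least 324-fold lower in MFH1NR. Bsg and Nptn, relatives of Emb, had -0.38 and -1.51 in COS1NR and -1.11 and -1.12 in MFH1NR. Cntn1, a GPI-anchored contactin of neurons, was well above background in MFH1NR only, at 513, and was at least 17.0-fold higher there than in MSCs.

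**Figure D5:**
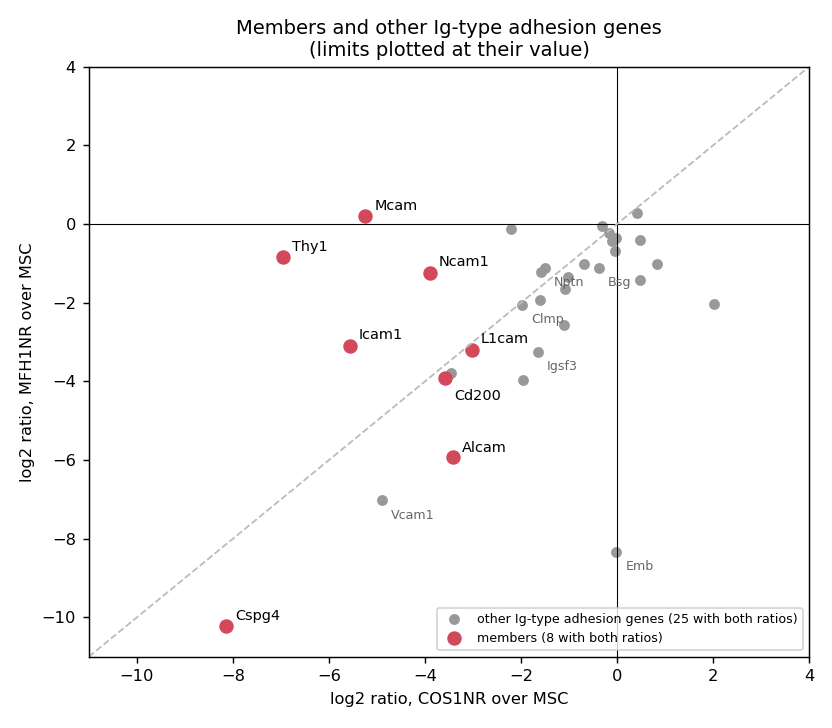
Log2 ratio of MFH1NR to MSCs against that of COS1NR to MSCs, with limits at their value, for the 8 members (red) and 25 other immunoglobulin-type adhesion genes (gray) that have both ratios. Thy1, Mcam, Ncam1 and Icam1 lie above the dashed line of equal ratios, and Cspg4, Alcam, Vcam1 and Emb lie below it.

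Genes that bind, anchor or process these surface molecules were lower more often than higher. Of 19 binding partners compared, 11 were at least 2-fold lower in COS1NR than in MSCs and 1, the Alcam receptor Cd6, was higher, at a ratio of 2.62. In MFH1NR 12 of 18 were lower and none was higher. Sdc4, a proteoglycan that acts with integrins in binding to Thy1, had log2 ratios of -2.51 and -3.34. Itgb3, the β3 integrin chain bound by Thy1, was well above background in MSCs only, at 121. Fgfr1, a receptor that Ncam1 and L1cam can engage, had -3.25 and -3.02. Gdnf, which binds Ncam1, had -0.80 and -1.45, and Lgals3, a galectin that binds Cspg4, 0.54 and -0.43. Of 13 genes of the intracellular side, 8 were lower in COS1NR and 5 in MFH1NR. Of the linkers of Icam1 and other tails to actin, Ezr and Rdx had 0.31 and -0.09 in COS1NR and 0.09 and 0.11 in MFH1NR. Msn, the remaining linker of this family, was lower in COS1NR, at -1.22, and had -0.97 in MFH1NR. Fyn, a kinase that acts downstream of Thy1 and Ncam1, had -2.27 and -3.26. Of 6 proteases and sugar-modifying enzymes, 3 were lower in COS1NR and 4 in MFH1NR. Adam17, a protease that releases L1cam and Alcam from the surface, had -0.08 and -1.36, and Chst10, which completes the HNK-1 carbohydrate of neural adhesion molecules, had -2.89 and -0.81.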

How the data were processed

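The authors deposited 1-colour scanner output of Agilent Feature Extraction for 3 arrays, 1 per cell type. Its version is 10.5.1.1 in the file headers and 9.1 in the submitters' processing notes. The deposited processed intensity is background-subtracted and detrended but not scaled between arrays, and a deposited series table held the same values. The study's methods and the labels name different RNA kits. The array design is annotated on rn4, so no probe coordinates are given. Control spots and 187 to 217 outlier spots per array were left out, spots of a probe were averaged on the log2 scale, and each array was scaled by its 75th percentile. The number of arrays limits the precision. The share of spots well above background was 56.6% to 59.7%, and no spot was saturated. RefSeq accessions were named by a GRCr8 gene table. A gene was read from its brightest probe, and 2-fold was the threshold.

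Members and lists were chosen with earlier results of these data known. Genes are named as all members, the 4 brightest and the 3 most changed of each list, and known partners, plus the defining markers that were not above background, the genes that make up small counts, Msn, Cd3e and the neighbors of Thy1, which were chosen after their values were seen. Marker lists cover stromal, pericyte, endothelial, leukocyte, T cell, B cell, neural and MSC genes. Alternatives covered scaling, background, probe choice, outliers, filters and threshold, with 2 added after the data were seen. Likeness was the Euclidean distance of the 3 log2 ratios. The ratio steps were tested on simulated data. Normexp was run in limma 3.58.1 (R 4.3.3), and all else in Python 3.11.15 with matplotlib 3.10.9, numpy 2.4.6 and pandas 2.3.3.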

Additional observations from a re-analysis of the deposited data

Results flagged for a closer look

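Mcam stood out because the sarcomas lay on opposite sides of MSCs by its brighter probe, with 1 array each. The log2 ratio of MFH1NR to COS1NR was 5.45, from -5.24 in COS1NR and 0.21 in MFH1NR to MSCs. The difference was not tested. The dimmer probe put MFH1NR at -0.25, below MSCs, so the opposite direction was seen by 1 of its 2 probes.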

How the results depend on the processing

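Of 22 member ratios, 21 kept their direction and 21 their side of 2-fold under every alternative that gave a value. The exceptions were Mcam in MFH1NR over MSCs, which was -0.02 as the mean of its probes and -0.25 by the dimmer one, and Ncam1 in MFH1NR over MSCs, as given above. Sizes held less well, as 15 of 22 moved by over 1.5 times in fold under normexp, 9 with measured values in place of limits, 8 without scaling and 6 with spike-in scaling. With only genes well above background on all 3 arrays, which leaves 2 members, the members at least 2-fold lower than in MSCs became 2 in COS1NR and 1 in MFH1NR, and between the sarcomas 2 were higher and 0 lower in MFH1NR. For the other immunoglobulin-type adhesion genes, the median log2 ratio in COS1NR over MSCs moved to -1.08 with that filter, to -1.08 with measured values in place of limits, to -0.68 with the mean of all probes and to -0.73 as a mean over genes. In MFH1NR over MSCs it moved to -0.41 without scaling, -1.86 with measured values and -0.65 with scaling by 7 spike-in probes. In MFH1NR over COS1NR it moved to -0.27 without scaling and reversed to 0.16 with spike-in scaling. Where no construction shows it, the cause was not tested. Over all genes the median against MSCs was 0.52 for COS1NR and 0.79 for MFH1NR without scaling, and -0.16 and 0.55 with spike-in scaling. Normexp was run on the median spot intensity with an offset of 50 and, like spike-in scaling, added after the data were seen. The planned form on the mean spot intensity was not run, since no column of it was among the values analysed here. No paired analysis was possible because there is 1 array per cell type. Signal over background limits Pecam1, Cd34 and every limit.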
